A study of Mus musculus with 6 samples.

Results

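The E2F and DP genes encode the transcription factors that couple the cell cycle engine to the genes of DNA replication and mitosis. The rows were found by gene symbol: 8 E2f genes (E2f1 to E2f8) and 2 DP genes (Tfdp1 and Tfdp2), 10 of the 47643 genes in the table. They were measured by RNA-seq in 6 libraries of sorted L-GMP, the leukaemic counterpart of the granulocyte-macrophage progenitor that normally gives rise to granulocytes and monocytes, from C57BL/6 mice. In 3 libraries the cells were wild type (WT), and in the other 3 (KO) they were labelled as double knockout for Prkaa1 and Prkaa2, the catalytic subunit genes of the energy sensor AMPK. The oncogene that all of these leukaemias share, the deleted exons, the driver of the deletion, the age of the mice and the number of mice behind each library remain not given in the sources used here. Whether the replicates stem from different mice is also unlabelled. The p-values therefore set the difference between genotypes only against the scatter among these libraries, and that scatter may be technical.

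An E2F protein binds DNA as a dimer with a DP protein. The pocket proteins are RB, p107 and p130. E2F1, E2F2 and E2F3 activate transcription of genes for S phase until a pocket protein, mainly RB, covers their activation domain. E2F4 and E2F5 mainly carry p107 or p130 to promoters and repress, E2F6 represses with Polycomb-type complexes and binds no pocket protein, and E2F7 and E2F8 repress without a DP partner because each carries a pair of DNA-binding domains. Several E2f genes are themselves regulated by E2F and by the DREAM complex, in which E2F4 or E2F5 sits with p107 or p130 and the MuvB core. In blood, E2F2 and E2F4 are known for their parts in the maturation of red cell precursors.

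Values below are FPKM, reads scaled by gene length and library size, and a value with ± is a mean with its SD (n = 3 libraries). Log2 fold changes are KO minus WT on the log2(FPKM + 1) scale, which understates changes at low levels. Genes are said to have risen or fallen where the adjusted p from limma was under 0.05 over the 9108 genes averaging 1 FPKM or more. Of the 10 genes, 8 reached that mean; E2f7 and Tfdp2 did not and are given as levels. Of the 8, 4 rose (E2f2, E2f5, E2f6 and E2f8) and 4 fell (E2f1, E2f3, E2f4 and Tfdp1). This has to be read against the whole comparison, in which 78.4% of tested genes were called, 38.0% higher and 40.4% lower, so a share of members called near these figures is no property of the family.

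Recovered reads numbered 11390545 to 16416211 per library in WT and 12372527 to 14025576 in KO. FPKM summed over all genes was larger in KO (649611 to 653819 per library) than in WT (463683 to 475654), so each member's change is also given with libraries rescaled to equal sums, which moved the median log2 change of all tested genes from -0.02 to -0.45. In that rescaled comparison 22.7% of tested genes were called higher and 59.0% lower. Prkaa1 was at 2.01, 2.20 and 1.80 FPKM in WT and 1.11, 0.735 and 0.548 in KO (log2 fold change -0.75, SE 0.13, adjusted p = 0.00112), and Prkaa2 had 2 reads in WT and 4 in KO. Of the labelled cell type's markers, 6 of 10 tested were higher and 4 lower as deposited, beside 38.0 and 40.4% of all tested genes. With equal sums 5 were higher and 5 lower. The granule genes Elane, Ctsg and Prtn3 were abundant in both genotypes, Elane and Prtn3 rising 4.51 and 4.35-fold, while the Fc receptor genes Fcgr3 and Fcgr2b fell to 51.8 and 28.1% of WT. Csf1r was nearly unread (1 read in WT, 32 in KO), Kit was at 0.250 ± 0.0654 FPKM in WT and 1.43 ± 0.0243 in KO, and Cd34 fell from 27.8 ± 0.840 to 3.51 ± 0.157 FPKM.

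The promoters of the genes with the largest rises and falls are shown first, because E2f genes are known to be controlled through such sites. RefSeq promoter windows on GRCm38.p6 (the mm10 build) matched 8 of the 10 genes, with 12 windows of 250 bases before and 50 after a start. Each was searched on both strands for E2F sites (TTTCCCGC, TTTCGCGC, TTTGCCGC or TTTGGCGC), for the cell cycle homology region bound by MuvB (CHR, TTTGAA or TTTCGAA) and for the NF-Y box CCAAT. Below are the 130 bases before the start, 5′ to 3′ on the gene's strand, with matches in capitals.
E2f2, chr4:136172144-136172273, plus strand: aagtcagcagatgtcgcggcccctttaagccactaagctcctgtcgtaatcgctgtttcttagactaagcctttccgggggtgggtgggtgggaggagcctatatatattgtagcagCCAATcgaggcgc
E2f8, chr7:48881597-48881726, minus strand: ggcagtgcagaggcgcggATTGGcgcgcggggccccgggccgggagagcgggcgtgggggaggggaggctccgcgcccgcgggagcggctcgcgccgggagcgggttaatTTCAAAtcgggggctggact
E2f3, chr13:29986064-29986193, minus strand: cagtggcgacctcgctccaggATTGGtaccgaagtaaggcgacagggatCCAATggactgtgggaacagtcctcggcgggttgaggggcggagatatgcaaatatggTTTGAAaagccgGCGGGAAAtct
Tfdp1, chr8:13338621-13338750, plus strand: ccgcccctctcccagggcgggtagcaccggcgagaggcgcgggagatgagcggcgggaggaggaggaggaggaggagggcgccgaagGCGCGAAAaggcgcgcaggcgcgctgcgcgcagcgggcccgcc

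The E2f3 stretch holds all 3 kinds of match, with the E2F site beginning 11 bases and the CHR 23 bases before the start. E2f8 has a CHR beginning 20 bases before its start and a CCAAT box at 112, but no E2F match in these letters. The E2F site of Tfdp1 begins 43 bases before the start. In E2f2 a CCAAT box begins 13 bases before this start, and its E2F match (TTTGGCGC) lies after it, from base 40. E2F matches were present in windows of 4 of the 8 genes (E2f2, E2f3, E2f7 and Tfdp1), CHR matches in 3 and CCAAT boxes in 4, and no matches overlapped each other. Counted by window, 5 of the 12 held an E2F match, 3 a CHR and 5 a CCAAT box. Both Tfdp1 windows hold the same E2F site, since they overlap. Over all 32851 windows of the same length, 2.26% held an E2F match, 18.5% a CHR and 37.4% a CCAAT box. These shares are per window, so the counts by gene are not comparable with them. Both the genes that rose and those that fell thus carried these letters, and a match is a description of sequence, not evidence of binding.

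Among the activators, E2f2 was far higher in KO. It was read at 1.95, 2.16 and 2.13 FPKM in WT replicates 1, 2 and 3 and at 13.5, 13.8 and 14.1 in KO replicates 1, 2 and 3. The KO libraries lay close together and well clear of WT, from 459 reads in WT and 2497 in KO. The mean rose 6.61-fold (log2 fold change 2.26, SE 0.06, adjusted p = 5.71e-08; 2.03 with equal sums), and only 2.35% of tested genes had a larger log2 fold change. E2f2 (ENSMUSG00000018983) lies on chromosome 4, 136172394 to 136196057, plus strand, in the GENCODE M21 annotation of GRCm38.

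The other activators went down. E2f1, the founding member, which also drives cell death genes when unrestrained, was at 8.56, 9.13 and 8.90 FPKM in WT and 6.64, 6.90 and 6.10 in KO. All KO libraries lay below all WT libraries, with a mean at 73.9% of WT (log2 change -0.39, SE 0.06, adjusted p = 0.000818; -0.85 with equal sums). E2f3 was at 1.84, 2.35 and 1.97 FPKM in WT and 0.929, 0.823 and 0.983 in KO, or 44.4% of WT (log2 change -0.67, SE 0.09, adjusted p = 0.000342; -1.16 with equal sums). E2f3 is transcribed from separate promoters into a long and a short form, and its value sums both. E2f1 (ENSMUSG00000027490) lies on chromosome 2, 154559407 to 154569892, minus strand, and E2f3 (ENSMUSG00000016477) on chromosome 13, 29906575 to 29986063, minus strand.

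The leading activator therefore differed between the genotypes. In WT, E2f1 exceeded E2f2, whose level was 0.228, 0.237 and 0.240 times that of E2f1 in the 3 libraries. In KO the ratio of E2f2 to E2f1 was 2.03, 2.0 and 2.30. E2f2 and E2f3 stood near each other in WT (ratio 1.02 ± 0.0896) and apart in KO (15.2 ± 1.34). These ratios are formed within a library and do not depend on scaling between libraries. Summed over E2f1, E2f2 and E2f3, activator transcripts came to 13.0 ± 0.648 FPKM in WT and 21.2 ± 0.220 in KO, with equal sums 27.6 and 32.6.

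**Figure D1:**
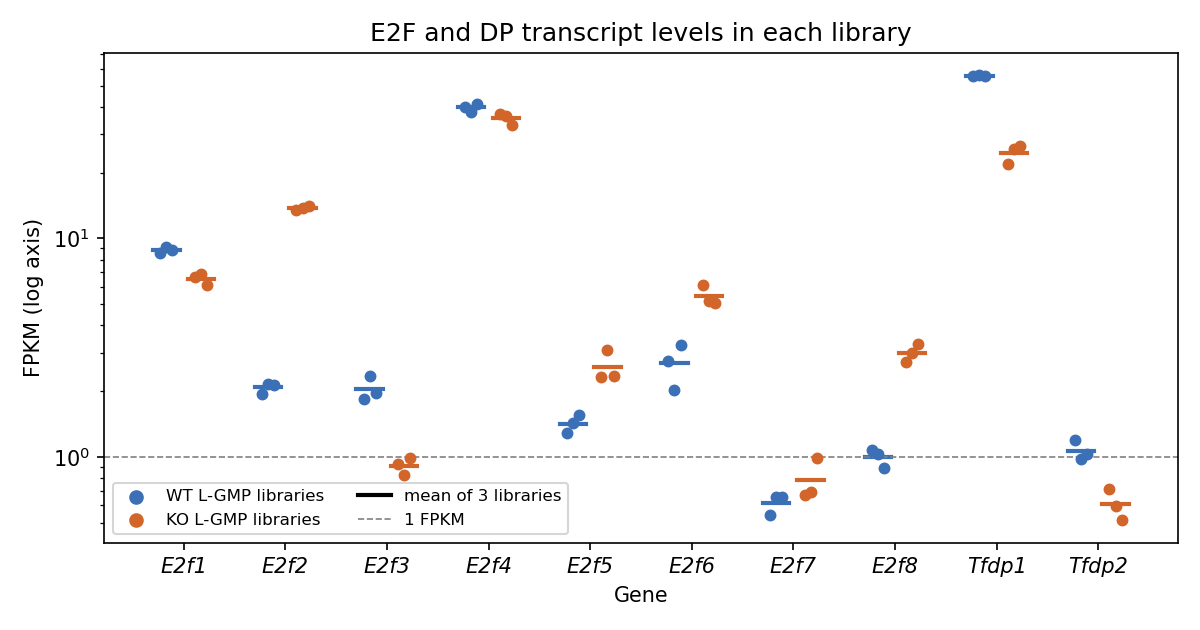
FPKM (log axis) of the 8 E2f and 2 DP genes, 1 point per library (WT blue, KO orange), with a line at each mean of 3 libraries and a dashed line at 1 FPKM. E2f2 sits at 13.5 to 14.1 FPKM in KO against 1.95 to 2.16 in WT, and Tfdp1 at 21.9 to 26.4 against 55.6 to 55.9.

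E2f4 was the most abundant E2f transcript in both genotypes. It was at 40.2, 37.9 and 41.5 FPKM in WT and 37.3, 36.5 and 33.1 in KO, so the lowest WT library and the highest KO library nearly met. The fall to 89.4% of the WT mean passed narrowly (log2 fold change -0.16, SE 0.06, adjusted p = 0.0340) and did not hold under 7 of 14 alternatives (adjusted p from 2.75e-05 to 0.468). It was lost without WT replicate 1 (adjusted p = 0.0877), without WT replicate 3 (0.107) and without KO replicate 3 (0.0862), with no mean-variance trend (0.0577) and with no minimum mean (0.0621). Scaling moved it most, to a log2 fold change of -0.05 with quantile normalization (adjusted p = 0.468) and -0.62 with equal sums (2.75e-05). E2f4 (ENSMUSG00000014859) lies on chromosome 8, 105297663 to 105305370, plus strand.

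The other repressors that use a DP partner rose. E2f5, which pairs with p130, was at 1.28, 1.43 and 1.55 FPKM in WT and 2.32, 3.10 and 2.34 in KO, a 1.82-fold rise with no overlap of the groups (log2 fold change 0.56, SE 0.11, adjusted p = 0.00196). It rests on the fewest reads of the family over the 6 libraries, 114 in WT and 170 in KO. With equal sums its change was 0.30 and missed the threshold (adjusted p = 0.0504, range over 13 alternatives 0.00200 to 0.0504). E2f6 was at 2.76, 2.03 and 3.25 FPKM in WT and 6.10, 5.18 and 5.08 in KO, a 2.03-fold rise (log2 change 0.82, SE 0.13, adjusted p = 0.000900; 0.50 with equal sums). Its WT libraries scattered more than those of any other tested member relative to their mean, and the KO libraries still lay above all of them. E2f5 (ENSMUSG00000027552) lies on chromosome 3, 14578641 to 14606309, and E2f6 (ENSMUSG00000057469) on chromosome 12, 16810963 to 16839742, both on the plus strand.

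Of the atypical E2Fs, E2f8 rose, while E2f7 was too low to be tested. E2f8 was at 1.07, 1.03 and 0.886 FPKM in WT and 2.71, 2.98 and 3.27 in KO. The mean rose 3.01-fold (log2 change 1.0, SE 0.09, adjusted p = 2.53e-05; 0.84 with equal sums), from 243 and 604 reads. Of the exonic bases of E2f8, 11.2% are shared with Gm2788, a noncoding gene on the opposite strand, which rose from 0.281 ± 0.0610 to 5.85 ± 0.388 FPKM (adjusted p = 1.79e-07). Whether reads were counted by strand is not given in the sources used here, and the part of Gm2788 reads in the E2f8 value was not tested. E2f7 was at 0.541, 0.656 and 0.653 FPKM in WT and 0.668, 0.691 and 0.987 in KO. The KO values lay just above the WT values, with KO replicate 3 apart from the others, on 252 and 263 reads. With no minimum mean its log2 fold change was 0.14 (SE 0.10, adjusted p = 0.318 over 21132 genes). With equal sums the E2f7 groups overlapped and its KO mean was 91.6% of WT, so its direction depends on the scaling. E2f8 (ENSMUSG00000046179) lies on chromosome 7, 48866429 to 48881596, minus strand, and E2f7 (ENSMUSG00000020185) on chromosome 10, 110745439 to 110787384, plus strand.

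Both DP genes were lower in KO. Tfdp1, which encodes the main dimer partner DP1, was at 55.6, 55.9 and 55.6 FPKM in WT, the most even values of the family. In KO it was at 21.9, 25.6 and 26.4, or 44.2% of WT (log2 change -1.15, SE 0.07, adjusted p = 3.01e-06; -1.63 with equal sums). On this scale it was the largest fall among the tested members, but as a share of WT it stood level with E2f3, and limma-voom on recovered reads gave -1.18 for both. It rests on 4252 reads in WT and 1553 in KO, and 11.0% of tested genes had a lower log2 fold change. Tfdp2, encoding the second partner DP2, was at 1.19, 0.977 and 1.03 FPKM in WT and 0.713, 0.594 and 0.512 in KO, or 57.0% of the WT mean. Its mean lay under the minimum, and with no minimum mean its log2 fold change was -0.36 (SE 0.09, adjusted p = 0.0155). With equal sums its KO mean was 41.1% of WT. Tfdp1 (ENSMUSG00000038482) lies on chromosome 8, 13338751 to 13378448, and Tfdp2 (ENSMUSG00000032411) on chromosome 9, 96196275 to 96323646, both on the plus strand.

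As deposited, the KO values of all 10 genes did not overlap the WT values, 5 above and 5 below. With equal sums 4 lay above, 5 below and E2f7 overlapped. Among all tested genes, as deposited, the groups did not overlap in 80.6%, KO above in 39.1% and below in 41.6%. With 3 libraries against 3, an exact permutation test of a single gene cannot give a p below 0.10.

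**Figure D2:**
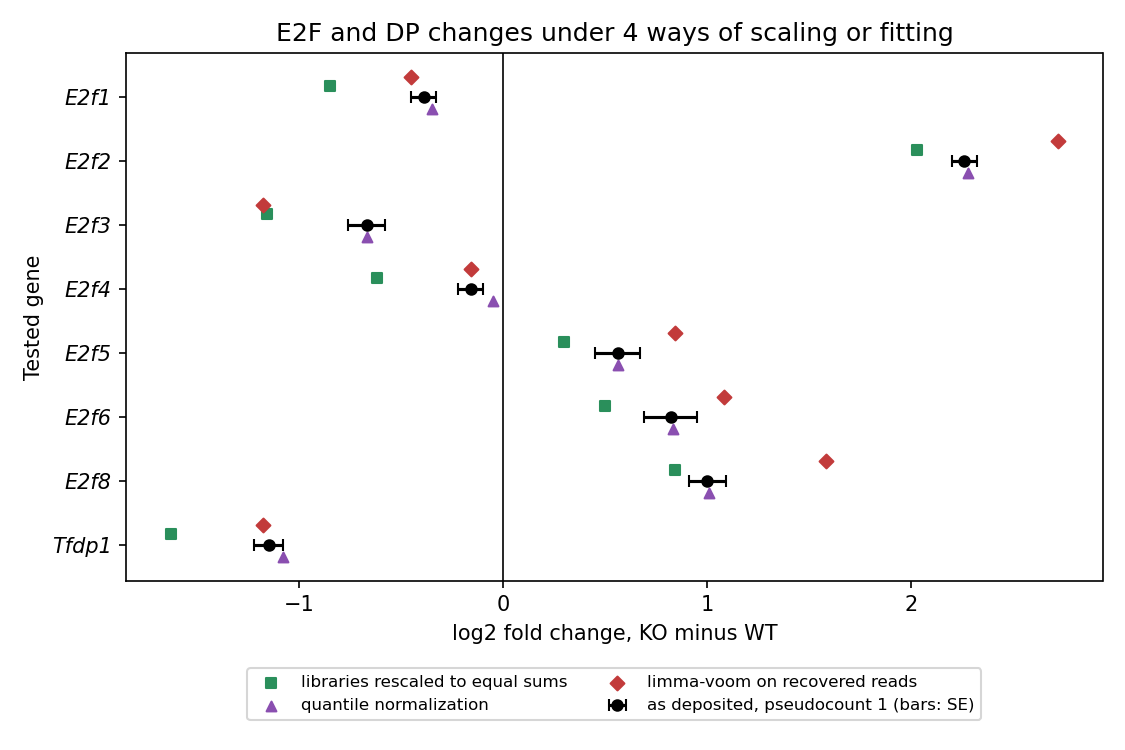
Log2 fold change (KO minus WT) of the 8 tested genes as deposited (black, bars are SE), with equal sums, with quantile normalization and by limma-voom on recovered reads. Directions are shared by the 4 fits, while E2f4 ranges from -0.62 with equal sums to -0.05 with quantile normalization.

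Ranked by level, WT libraries ran from Tfdp1 through E2f4 and E2f1 to E2f6, E2f2, E2f3, E2f5, Tfdp2, E2f8 and E2f7. The ranges of neighbours overlapped for E2f6 with E2f2, E2f2 with E2f3, and Tfdp2 with E2f8, and these pairs are not ordered beyond their spread. In KO the order ran E2f4, Tfdp1, E2f2, E2f1, E2f6, E2f8, E2f5, E2f3, E2f7 and Tfdp2, with overlaps of E2f1 with E2f6, E2f8 with E2f5, E2f3 with E2f7 and E2f7 with Tfdp2. The lead of Tfdp1 over E2f4 in WT (ratio 1.38, 1.48 and 1.34) was turned round in KO (0.586, 0.703 and 0.796).

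The make-up of the E2F pool, each gene's share of the FPKM summed over E2f1 to E2f8 in a library, does not depend on scaling between libraries, though it does depend on weighting reads by gene length. E2f4 held 69.1, 66.8 and 68.2% of it in WT and 53.2, 52.2 and 50.2% in KO. E2f2 held 3.35, 3.82 and 3.51% in WT and 19.2, 19.7 and 21.3% in KO, so the share of E2f2 in KO exceeded that of E2f1 in WT (15.1 ± 0.837%). The share of E2f1 was 9.53 ± 0.313% in KO, and that of E2f3 was 3.51 ± 0.553% in WT and 1.33 ± 0.157% in KO. The shares of E2f6 (4.56 ± 0.894% in WT, 7.93 ± 0.673% in KO), E2f8 (1.70 ± 0.212 and 4.36 ± 0.549%) and E2f5 (2.42 ± 0.195 and 3.77 ± 0.592%) lay higher in every KO library. The share of E2f7 overlapped between genotypes (1.05 ± 0.116% and 1.15 ± 0.304%, exact permutation p = 0.80, n = 3). For the other 7 genes the groups did not overlap, and each reached the smallest two-sided p the exact permutation test allows, 0.10, or 0.113 after Benjamini-Hochberg adjustment over the 9 shares and ratios tested.

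DP transcripts summed to 97.5, 100 and 93.0% of E2F transcripts in the WT libraries and to 32.2, 37.5 and 40.8% in the KO libraries. This ratio differed by 60.1 percentage points between the means (exact permutation p = 0.10, the smallest possible, n = 3). The summed E2F transcripts themselves were 58.6 ± 2.10 FPKM in WT and 68.7 ± 2.37 in KO, but with equal sums the order turned round, 125 in WT and 105 in KO, so no direction can be given for the family as a whole. Summed E2f4, E2f5 and E2f6 were 44.0 ± 2.49 FPKM in WT and 43.7 ± 2.75 in KO as deposited, but with equal sums 93.5 (87.8 to 97.3) in WT and 67.1 (62.4 to 70.4) in KO, with no overlap. E2f7 with E2f8 summed to 1.61 ± 0.0713 and 3.77 ± 0.443 FPKM, or 3.43 and 5.79 with equal sums. In these bulk libraries a lower level can mean fewer cells of a type or less RNA per cell, which cannot be told apart.

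**Figure D3:**
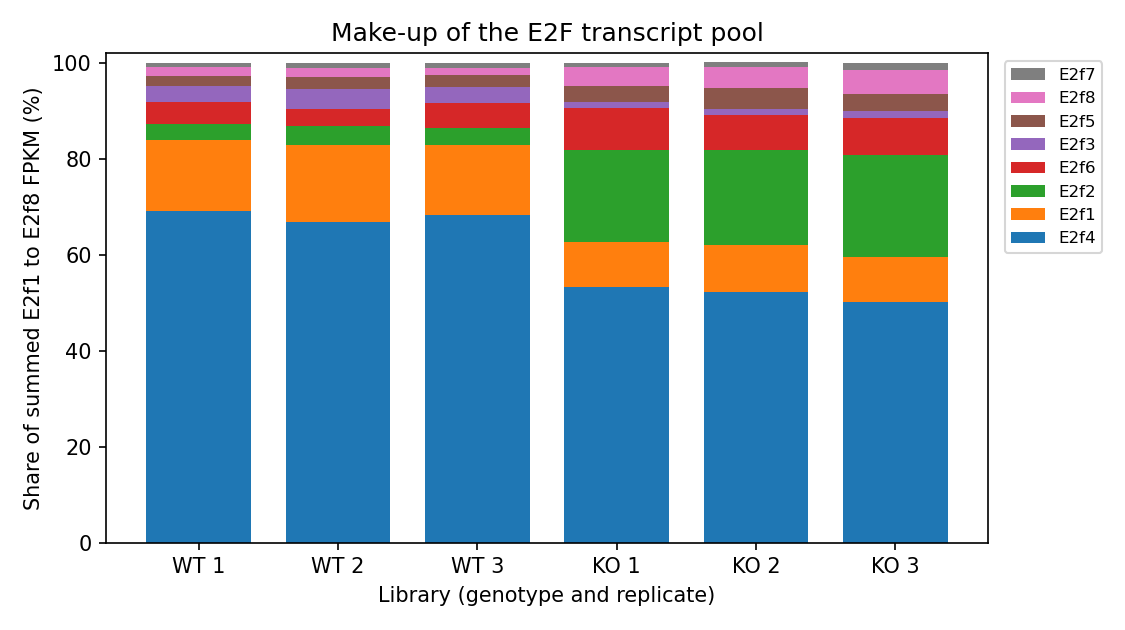
Share (%) of each E2f gene in the FPKM summed over E2f1 to E2f8, 1 bar per library. E2f2 fills 19.2 to 21.3% of the bar in KO and 3.35 to 3.82% in WT, and E2f4 50.2 to 53.2% and 66.8 to 69.1%.

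The genes whose pattern over the 6 libraries lay nearest to that of E2f2, by Euclidean distance of centred log2(FPKM + 1) values, were Mgst2 (distance 0.0662), Nfkbia (0.0729), Tuba1a (0.0959), Dgat2 (0.0965) and Prdx1 (0.0966). For Tfdp1, which had the largest fall on that scale, they were Eif3e (0.0872), Wdr75 (0.103), Rprd1b (0.106), Naa10 (0.112) and Mcm10 (0.114). Their log2 fold changes ran from 2.21 to 2.30 beside E2f2 and from -1.19 to -1.10 beside Tfdp1, over libraries that all these genes share.

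The pocket protein genes Rb1 and Rbl2 rose, and 4 of 5 tested genes of the MuvB core and its partners fell, a small count beside the 40.4% of all tested genes that fell (59.0% with equal sums). Rb1 went from 0.466 ± 0.111 to 2.28 ± 0.230 FPKM and Rbl2 (p130) from 0.803 ± 0.102 to 1.58 ± 0.129, while Rbl1 (p107) was at 2.49 ± 0.0282 and 2.49 ± 0.251 FPKM (limma adjusted p = 0.999; log2 change -0.39 with equal sums). Rb1 and Rbl2 share 14.9 and 21% of their exonic bases with genes on the opposite strand, and the part of those genes' reads was not tested. Rb1 rests on 125 reads in WT and 506 in KO. Of the MuvB group, Lin52, Rbbp4, Mybl2 and Foxm1 fell and Lin37 rose from 55.9 ± 0.651 to 90.5 ± 2.03 FPKM. Mybl2, the B-MYB partner of MuvB in S phase, fell to 63.3% of its WT level and Foxm1, its partner in G2, to 49.3%. Lin9, Lin54 and Mybl1 were under the minimum mean, Lin9 at 0.218 FPKM in WT and 0.0675 in KO Lin54 at 0.276 and 1.24, and Mybl1 at 0.0209 and 0.158.

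Upstream of the pocket proteins, Cdk4 and Cdk6, the kinases that release E2F, fell to 46.2% and 32.8% of their WT levels and Cdk2 to 77.6%. Ccnd3 (cyclin D3) rose 2.09-fold, Ccnd2 rose 1.21-fold as deposited but was lower with equal sums, and the E2F target cyclins Ccne1 (26.1 ± 0.634 and 26.6 ± 1.77 FPKM) and Ccne2 (5.45 ± 0.418 and 5.75 ± 0.273) did not pass (with equal sums both were lower, log2 -0.43 and -0.36). Ccnd1 had 57 reads in WT and none in KO, at least 15.7-fold lower against a floor of 3 reads over the group. Of 4 tested CDK inhibitor genes, Cdkn1a, Cdkn1c and Cdkn2d rose (2.22, 6.98 and 3.95-fold) and Cdkn2c fell to 13.4% of its WT level. These are few genes beside the 38.0% higher and 40.4% lower of all tested genes (22.7 and 59.0% with equal sums). Cdkn1b was under the minimum mean (0.160 FPKM in WT and 0.575 in KO). Cdkn2a and Cdkn2b, with 46 and 48 reads in WT, had none in KO (at least 12.7 and 13.2-fold lower). Ccnd1 and Cdkn1c share 23.4 and 30.7% of their exonic bases with other genes and are uncertain.

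Among genes that act on E2F proteins themselves, Usp11, a deubiquitinase, rose 14.8-fold from 0.477 ± 0.105 to 7.05 ± 0.345 FPKM. Ccnf (cyclin F) rose 1.27-fold as deposited, a call lost with equal sums (log2 -0.13, limma adjusted p = 0.162), Fzr1 and Cdc20 fell, and Ccna2 and Fbxo5 did not pass. With equal sums Ccna2 and Fbxo5 were lower (log2 -0.55 and -0.63). Skp2 (0.968 FPKM in WT and 0.935 in KO) and Chek1 (1.75 and 0.141) were under the minimum mean. In the repressor complex of E2F6, 5 of 10 tested genes fell, 3 rose and 2 did not pass (median log2 change -0.23), near the 40.4% lower and 38.0% higher of all tested genes. With equal sums 8 were lower and none higher, beside 59.0 and 22.7% of all tested genes. The falls include those of Rnf2 (to 23.2% of WT), Pcgf6 (51.1%), L3mbtl2 (49.6%) and Epc1 (60.5%), while the rises of Max, Wdr5 and Hdac1 (1.38, 1.27 and 1.16-fold) turned negative with equal sums. Germline genes known to be kept silent by E2F6 were near 0 in both genotypes, none of the 8 exceeding 0.0343 FPKM in either mean.

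Transcripts listed as E2F targets of the G1/S transition, such as replication factors, were more often lower than higher in KO. Of 70 tested of 75, 11 were higher (15.7%), 41 lower (58.6%) and 18 did not pass, with a median log2 change of -0.28, against 38.0 and 40.4% and a median of -0.02 over all tested genes. With equal sums 6 were higher and 63 lower (90.0%), median -0.74 against -0.45. On the log2(FPKM + 1) scale the largest falls were those of Mcm10 (to 35.0% of WT), Pole2 (43.8%), Pold2 (49.6%) and Uhrf1 (49.0%), and the largest rises those of Rrm2 (2.59-fold), Dck (1.76-fold), Cdc7 (1.80-fold) and Asf1b (1.62-fold). As deposited, the summed FPKM of the list overlapped between genotypes, 2831 to 2854 in WT and 2842 to 2862 in KO. Within that sum Rrm2 went from 178 ± 1.04 to 462 ± 4.25 FPKM. The sum depends on scaling between libraries and was not rescaled to equal sums, so it does not show that the list as a whole was unchanged.

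Of the G2 and M phase targets of DREAM, 34 of 35 were tested: 8 were higher (23.5%), 17 lower (50%) and 9 did not pass, median -0.12. Over all tested genes the shares were 38.0 and 40.4%, with a median of -0.02. With equal sums 2 were higher (5.88%) and 24 lower (70.6%), median -0.58. The same rescaling put all tested genes at 22.7% higher and 59.0% lower, median -0.45. Bub1b, Ttk and Ccnb2 fell to 47.4, 39.1 and 61.5% of WT and Ube2c, which shares 22.8% of its exonic bases, to 65.8%. Cdc25b rose 2.77-fold, Top2a 1.63-fold, Mki67 1.57-fold and Birc5 1.41-fold. With equal sums the calls of Mki67 (log2 0.16, limma adjusted p = 0.126) and Birc5 (log2 0.02, adjusted p = 0.420) were lost. Of 8 tested genes of E2F1-linked cell death, 3 rose and 4 fell, near the shares of all tested genes (38.0% higher, 40.4% lower). Among them, Bcl2l11 (BIM) rose 9.15-fold and Apaf1 1.39-fold, and Pmaip1 (NOXA) fell to 17.2%, Casp8ap2 to 75.4% and Siva1 to 86.1%. The rise of Apaf1 was lost with equal sums (log2 change 0.00, limma adjusted p = 0.975), and Bbc3 did not pass. These lists describe these libraries and set nothing apart about E2F control.

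**Figure D4:**
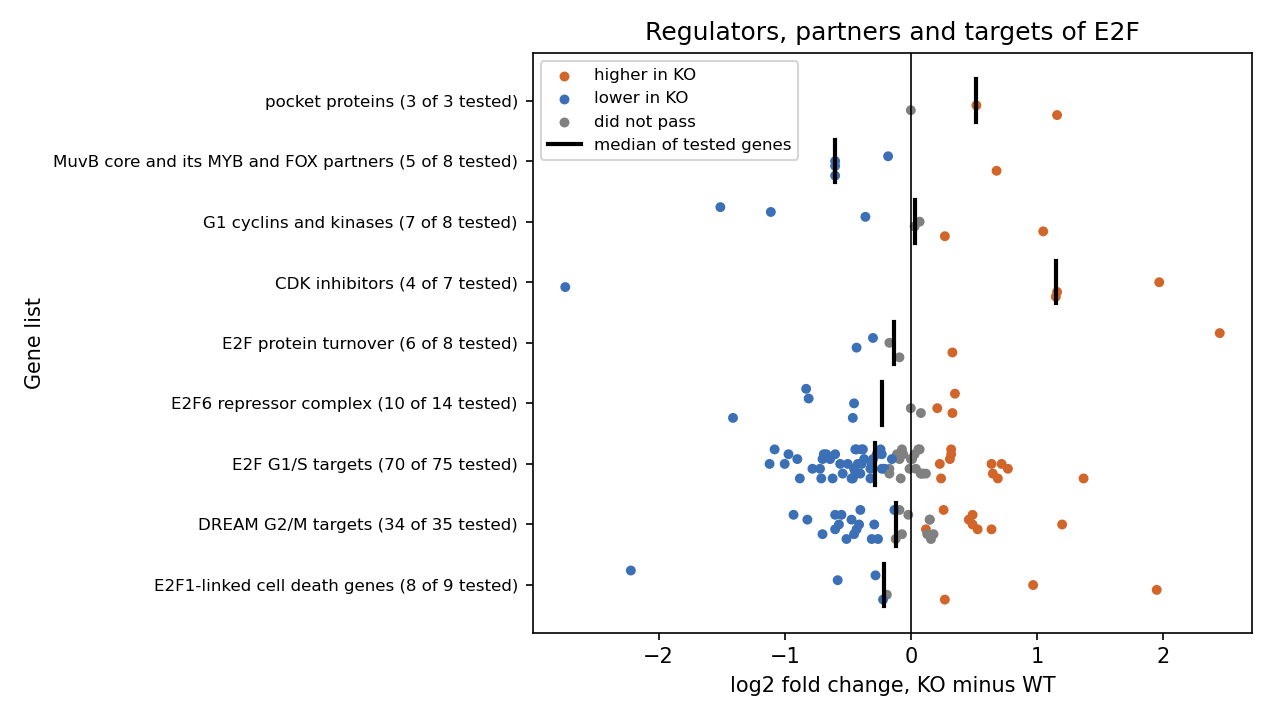
Log2 fold change (KO minus WT) of the tested genes in 9 lists of E2F regulators, partners and targets, 1 point per gene, coloured by call, with a bar at each list's median. The G1/S targets centre on -0.28 with 41 lower and 11 higher, and the 3 pocket protein genes lie at 0 or above.

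Summed markers of other cell types also differed between the genotypes, some higher and some lower in KO. Over 21 erythroid markers in the table, summed FPKM was 108 to 114 in WT and 392 to 402 in KO. Of these markers, 7 in WT and 11 in KO averaged at least 1 FPKM. The most abundant were Blvrb (14.8 ± 0.877 and 148 ± 3.90 FPKM), Nfe2 (71.0 ± 2.89 and 148 ± 2.04) and Gata1, which was unread in WT and stood at 18.7 ± 0.498 FPKM in KO, while 5 markers, Alas2, Trim10, Rhag and Aqp1 among them, were at 0 in KO. The 20 markers of basophils, mast cells and eosinophils summed to 32.9 to 39.1 and 583 to 614 FPKM (4 and 10 members averaging at least 1, 12 at 0 in WT and 7 in KO), led by Prg2, Mcpt8 and Prss34, and the 18 markers of neutrophil maturation to 670 to 683 and 81474 to 83343 (11 and 13 members), led by S100a8, S100a9 and Lyz2, with Mmp9 and Fpr1 at 0 in KO. The 10 megakaryocyte markers summed to 4.99 to 5.89 and 12.9 to 14.1, with Pf4 alone averaging at least 1, 8 at 0 in WT and 6 in KO. T cell markers (2.27 to 2.48 in WT, mostly Lck, and 0.709 to 1.23 in KO) and B cell markers (52.9 to 57.6 in WT, mostly Cd79b, and 1.97 to 3.25 in KO) were lower, with Cd3e, Cd8a and Pax5 at 0 in all libraries. The part of these cell types in the E2F and DP changes was not tested.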

How the data were processed

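The authors deposited FPKM values for 47643 genes in 6 libraries, 3 per genotype (L-GMP cells, Smart-seq2 cDNA, Nextera XT libraries, per the labels' protocols). CASAVA, bcl2fastq, STAR 2.5.3a, DESeq2 1.18.1 and mm10 are named in the submitters' processing notes; counter, annotation and strand setting remain not given in the sources used here. The 9108 genes averaging 1 FPKM or more were tested on log2(FPKM + 1) with limma 3.58.1 in R 4.3.3 (empirical Bayes with a mean-variance trend, two-sided, Benjamini-Hochberg, threshold 0.05). Shares were compared by exact permutation tests in scipy 1.17.1. Whole reads were recovered by dividing each FPKM by what 1 read is worth at that gene length. Values were whole within 0.001 for all 21132 genes above 0: for 16481 at the GENCODE M21 exonic length, for 4651 at a length searched for, where the number is the smallest the values allow (E2f3, E2f4, E2f6 and Tfdp1 among the members). Floors cover counting error only, since PCR copies cannot be told from separate molecules here.

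Replicate pairs differed by 2.78 to 3.33 times sampling noise, so none was treated as 1 library deposited a second time; this does not show that they are biological replicates. Alternatives were the minimum mean, the pseudocount, scaling, the variance model, a replicate block, limma-voom on recovered reads and leaving out each library. On simulated data with 8966 genes, 34.7, 59.2, 85.7 and 95.6% of genes changed 1.25, 1.5, 2 and 4-fold were recovered. There, 5 unchanged genes were called. Only 45 to 49 genes were changed at each fold, while 78.4% of tested genes were called in the real comparison. The adjusted threshold depends on that share, so these rates cannot be carried over to the real comparison. Members and lists were chosen with earlier results of these data known. Beside the targeted genes and the 5 genes nearest in pattern to the largest rise and fall, the text names all members and every gene of lists of up to 8 genes (germline genes, near 0, as a group); of longer lists, it names the 4 called genes with the largest change in each direction, and of marker lists up to 3 of the most abundant in either genotype. Kit, Cd34, Fcgr3, Fcgr2b, Csf1r, Bbc3, Gm2788 and the markers named as at 0 were chosen after their values were seen. A few list genes are not reported here by name.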

Additional observations from a re-analysis of the deposited data

How the results depend on the processing

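None of the 8 tested members changed direction in the log2 fold change under the alternatives run; E2f7, under the minimum mean, turned from a higher to a lower KO mean with equal sums. E2f1, E2f2, E2f3, E2f6, E2f8 and Tfdp1 kept their calls under all of those that tested them, E2f5 lost its call with equal sums and E2f4 lost it under 7 of 14. The number of members called higher went from 4 to 1 at a minimum mean of 5 FPKM, where fewer genes are tested. Over all genes, 3464 were called higher and 3676 lower, against 2072 and 2383 at a minimum mean of 5 FPKM, 2069 higher with equal sums and 5769 lower with no minimum mean. The share of E2f4 in KO minus WT turned from -16.2 to 3.39 percentage points when DP transcripts were added to the denominator, a sum that includes Tfdp1. On recovered reads, which weight long transcripts more, the share differences became 26.0 for E2f2 (16.5 in FPKM), -8.88 for E2f1 (-5.62), -4.54 for E2f3 (-2.18), 0.541 for E2f5 (1.34), 2.06 for E2f6 (3.38) and 4.28 for E2f8 (2.66). With DP in the denominator those of E2f1 and E2f3 were -0.720 and -0.809. That of E2f7 turned from 0.0915 to -0.318 on recovered reads and ranged from -0.0838 (without KO replicate 3) to 0.188 with 1 library left out; the cause was not tested.

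Nothing in the labels says that replicate numbers pair the libraries. Deviations of same-numbered libraries correlated at -0.0166 to 0.00946 and those of other pairs at -0.0168 to 0.0278. Such values cannot show whether libraries were prepared in pairs. With the number as a replicate block 3420 genes were called higher and 3620 lower, and E2f4 had an adjusted p of 0.0613; the block changed no other member's call. Depth limits the members read least, such as E2f5 (114 reads in WT, 170 in KO) and E2f3 in KO (163).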
